A study of Homo sapiens with 8 samples.

Results

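The D cyclins CCND1, CCND2 and CCND3, the kinases CDK2, CDK4 and CDK6, the CDK inhibitors CDKN1B, CDKN2C and CDKN2D and the retinoblastoma gene RB1 were compared between small and large human embryonic stem cells. The members were the probe sets of the array annotated to 1 of these 10 gene symbols alone. This gave 24 of 54675 probe sets, for 9 of the 10 genes, out of 19775 genes with such a probe set. CDKN2C was not analysed here.

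The cells were of H1, an established cell line derived from a human embryo, grown over a feeder layer of irradiated mouse fibroblasts. They were separated by flow cytometry on forward scatter, which follows cell size, and side scatter, which follows granularity. A small and a large subpopulation were each collected in 4 biological repeats, and total RNA of each repeat went on its own 1-colour Affymetrix array. The labels name no genetic change and no agent for either subpopulation, and both come from a single cell line.

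D-type cyclins are the regulatory subunits of CDK4 and CDK6, and their synthesis depends on growth signals. The active kinases phosphorylate the retinoblastoma protein, which then releases E2F transcription factors, and CDK2 with cyclin E completes this step at the entry into S phase. CDKN1B (p27) of the CIP/KIP family binds CDK2 complexes, while CDKN2C (p18) and CDKN2D (p19) of the INK4 family bind CDK4 and CDK6. Embryonic stem cells are known for a short G1 phase.

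The values below are log2 normalized intensities of single probe sets. They are relative to the RNA put on an array and are not amounts per cell. Because each probe set has its own brightness, levels were compared between arrays and not between genes. A probe set was tested if its mean over the 8 arrays was above 3.623, which kept 19 of the 24 member probe sets and 8 genes. Where a gene had several tested probe sets, the brightest one on average stood for the gene. Differences are small minus large, with a moderated standard error (SE).

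Before normalization the upper quartile (75th percentile) of an array lay between 42.0 and 106 units, so the 8 arrays differed 2.52-fold in brightness. The groups did not differ in it beyond their spread (exact two-sided permutation p = 0.714). Large array 1 was the dimmest, and the log2 difference between the 3 prime and 5 prime control probe sets of GAPDH and ACTB, a sign of RNA quality, was 2.91 there. That measure ran from 1.94 to 2.66 on the small arrays and from 1.83 to 1.89 on large arrays 2 to 4. The stem cell factors NANOG and SOX2 were bright in both groups and did not pass the test (adjusted p = 0.838 and 0.513 in limma). Of 13 tested stem cell markers 1 was called, where 1.63% of all 14726 genes passed. It was PODXL, a surface sialomucin, which averaged 10.71 ± 0.27 in small and 11.70 ± 0.24 in large cells (SD, n = 4 each; limma adjusted p = 0.0118). The mean was lower in small cells for 12 of these 13 genes, and 2 of the 13 had an unadjusted limma p under 0.05. The summed linear level of the 13 genes was 23919 to 26551 in small and 27575 to 30938 in large cells. For 7 neuroectoderm markers it was 1195 to 1312 in small and 967 to 1072 in large cells, and 0 of the 7 were called. All 7 means were higher in small cells, and 4 of the 7 had an unadjusted limma p under 0.05, against 15.2% of all probe sets. For 8 fibroblast markers the summed level overlapped (1117 to 2067 in small, 1441 to 2808 in large), as it did for 6 mesoderm and endoderm markers (192 to 486 in small, 203 to 486 in large). For 4 trophoblast markers it was 265 to 353 in small and 391 to 409 in large cells. Of these lists' genes, 0 were called. At a share of 1.63% over all genes, lists of this size would hold few or no called genes. Such a sum is carried by its brightest genes. Among the trophoblast markers HLA-G differed by -0.80, the others by -0.18 to -0.045. The mean log2 level of the 13 stem cell markers overlapped, at 10.26 to 10.61 in small and 10.51 to 10.85 in large cells. That mean was 5.97 to 6.14 in small and 5.40 to 5.56 in large cells for the neuroectoderm markers. It was 5.99 to 6.10 in small and 6.16 to 6.52 in large cells for the trophoblast markers. In RNA of pooled cells, fewer cells of a type or cycle phase and less RNA per cell cannot be told apart. The part of these markers in the values below was not tested.

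The regulators of the G1 phase showed no called difference between small and large cells. In limma, 0 of the 19 tested member probe sets passed an adjusted p of 0.05, where 1.5% of all 32768 tested probe sets passed (492, of which 63 were higher and 429 lower in small cells). At an unadjusted p of 0.05, 3 of the 19 passed, against 15.2% of all probe sets. The groups did not overlap for 2 of the 19, against 9.35% of all, so each of these shares was near that of the whole array. The mean was higher in small cells for 10 and lower for 9, with a median log2 difference of 0.14 over the 19 and of 0.022 over all tested probe sets. The smallest adjusted p among the members was 0.214, for CCND2. Without large array 1, 0 of 18 tested member probe sets passed, where 790 (2.41%) of all 32768 did. An unadjusted p under 0.05 was then found for 7 of the 18, against 5582 (17%) of all, and the difference between these shares was not tested. Of the 8 fits with 1 array left out, this one gave the most such member probe sets. Without small array 3 there were 5 of 18, against 16.4% of all. Without large array 3 there were 0 of 19, against 12.6% of all.

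**Figure D1:**
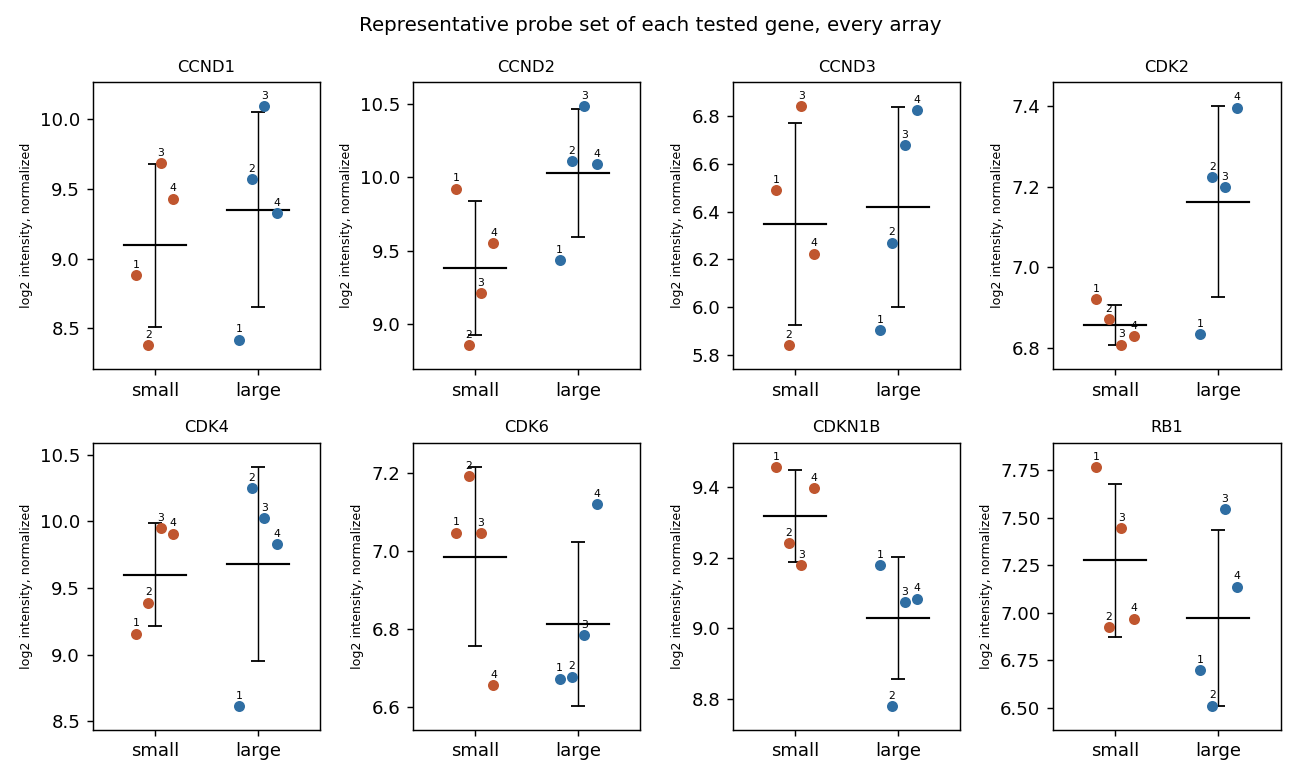
Log2 normalized intensity (vertical axes, each with its own range) of the representative probe set of 8 genes on 4 small and 4 large arrays; numbers are replicate numbers, the bar is the group mean and the error bar the SD. CDKN1B is the panel in which all small points lie above all large points, from 9.18 to 9.46 against 8.78 to 9.18.

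Cyclin D2 had the lowest p of the members. CCND2 on its brightest probe set, 200953_s_at, was at 9.92, 8.86, 9.21 and 9.55 in small cells, against 9.44, 10.11, 10.49 and 10.09 in large cells. Large arrays 2 to 4 were above every small array, while large array 1 lay among the small ones, so the groups overlapped. The means were 9.39 ± 0.46 in small and 10.03 ± 0.44 in large cells (SD, n = 4 each), a difference of -0.64 ± 0.24 SE. This did not pass (limma unadjusted p = 0.0179, adjusted p = 0.214), and its 95% interval ran from -1.16 to -0.13. Without large array 1 the difference was -0.84 with a limma adjusted p of 0.0642, the smallest with 1 array left out. The largest was 0.437, without small array 2, where the difference was -0.46.

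The probe sets of CCND2 did not move together. The dim probe set 200952_s_at was at 4.28, 2.61, 4.30 and 2.82 in small cells, against 4.54, 4.35, 4.49 and 4.81 in large cells, without overlap (-1.05 ± 0.46 SE, limma adjusted p = 0.300). This is 1 of the 2 member probe sets whose groups did not overlap, and its mean lies only 0.40 above the level required for testing. Probe set 200951_s_at went the other way, at 8.91, 8.83, 8.56 and 8.76 in small cells, against 9.01, 9.002, 7.94 and 7.36 in large cells (0.43 ± 0.31 SE, limma adjusted p = 0.539). Here large arrays 1 and 2 were above all small arrays and large arrays 3 and 4 below them. Probe set 231259_s_at had the same sign, with 6.82 to 8.02 in small and 6.31 to 7.87 in large cells (0.47 ± 0.32 SE, limma adjusted p = 0.530). All 4 probe sets carry the suffix that marks possible binding to several transcripts, so which transcript each one measured is not settled by these files. With the mean of the 4 probe sets in place of the brightest one, the CCND2 difference was -0.20.

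Cyclin D1, the D cyclin that many mitogens induce, was split in the same way. CCND1 on its brightest probe set, 208712_at, was at 8.88, 8.38, 9.69 and 9.43 in small cells, against 8.42, 9.57, 10.10 and 9.33 in large cells. The groups overlapped over most of their range. The difference was -0.26 ± 0.33 SE (limma adjusted p = 0.760), with a 95% interval from -0.96 to 0.45. The other probe set, 208711_s_at, was at 8.26, 7.70, 8.04 and 8.01 in small cells, against 7.71, 7.92, 7.37 and 6.04 in large cells. Large array 4 was lowest by far, and the difference was 0.74 ± 0.33 SE (limma unadjusted p = 0.0395, adjusted p = 0.298).

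Within an array, 208711_s_at minus 208712_at for CCND1 ran from -1.64 to -0.62 in small cells, against -0.71, -1.66, -2.73 and -3.28 on large arrays 1 to 4. For CCND2, 200951_s_at minus 200953_s_at ran from -1.01 to -0.031 in small cells, against -0.42, -1.11, -2.54 and -2.72 on large arrays 1 to 4. In both genes large arrays 2 to 4 were below all small arrays, array 2 only just, and large array 1 was within their range. The same held for 231259_s_at minus 200953_s_at of CCND2 (-2.39 to -0.83 in small cells, against -1.56, -2.72, -4.17 and -3.21 on large arrays 1 to 4). It did not hold for the dim 200952_s_at minus 200953_s_at, which ran from -6.73 to -4.92 in small and from -5.99 to -4.90 in large cells. These probe set pairs were chosen after their values were seen and were not tested. Large array 1 is also the array with the high 3 prime to 5 prime difference given above, and in that measure too large arrays 2 to 4 were below all small arrays. The order was not the same throughout, as large array 1, at 2.91, was above all small arrays in that measure. Small array 2, at 1.94, was close to large array 4, at 1.89, while their CCND1 differences between probe sets were -0.68 and -3.28. With the measure as a covariate, the brightest probe sets differed by -0.55 for CCND2 and -0.14 for CCND1 (limma adjusted p = 0.311 and 0.889). The part of RNA quality in the pattern of the probe set pairs was not tested.

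**Figure D2:**
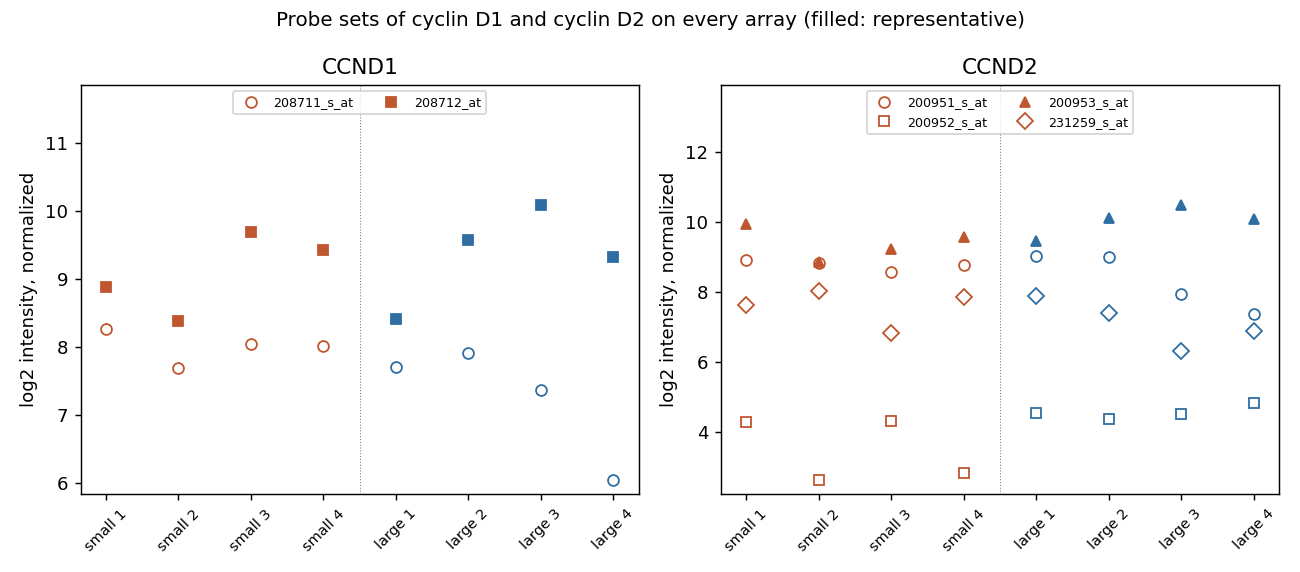
Log2 normalized intensity (vertical axis) of the 2 tested probe sets of CCND1 and the 4 of CCND2 on each array (horizontal axis), with filled symbols for the brightest one. For CCND1, 208711_s_at minus 208712_at ran from -1.64 to -0.62 on the small arrays, against -0.71, -1.66, -2.73 and -3.28 on large arrays 1 to 4.

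Cyclin D3 had no called difference on its brightest probe set. CCND3 on 201700_at was at 6.49, 5.84, 6.84 and 6.22 in small cells, against 5.90, 6.27, 6.68 and 6.83 in large cells. The ranges almost coincided, and the difference was -0.071 ± 0.26 SE (limma adjusted p = 0.930, 95% interval from -0.64 to 0.49). Probe set 1562028_at, 0.052 above the level required for testing, had 3.76 to 4.59 in small cells, against 5.28 on large array 1 and 2.20 to 2.60 on the other large arrays (1.06 ± 0.64 SE, limma adjusted p = 0.462).

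Disagreement between probe sets was common on the array as a whole. Of 6750 genes with several tested probe sets, 3558 (52.7%) had both signs, and this held for 4 of 5 members: CCND1, CCND2, CCND3 and CDK6. The differences of a gene's probe sets were at least 1 apart on the log2 scale in 12.9% of these genes, and in 3 of the 5 members, the D cyclins.

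**Figure D3:**
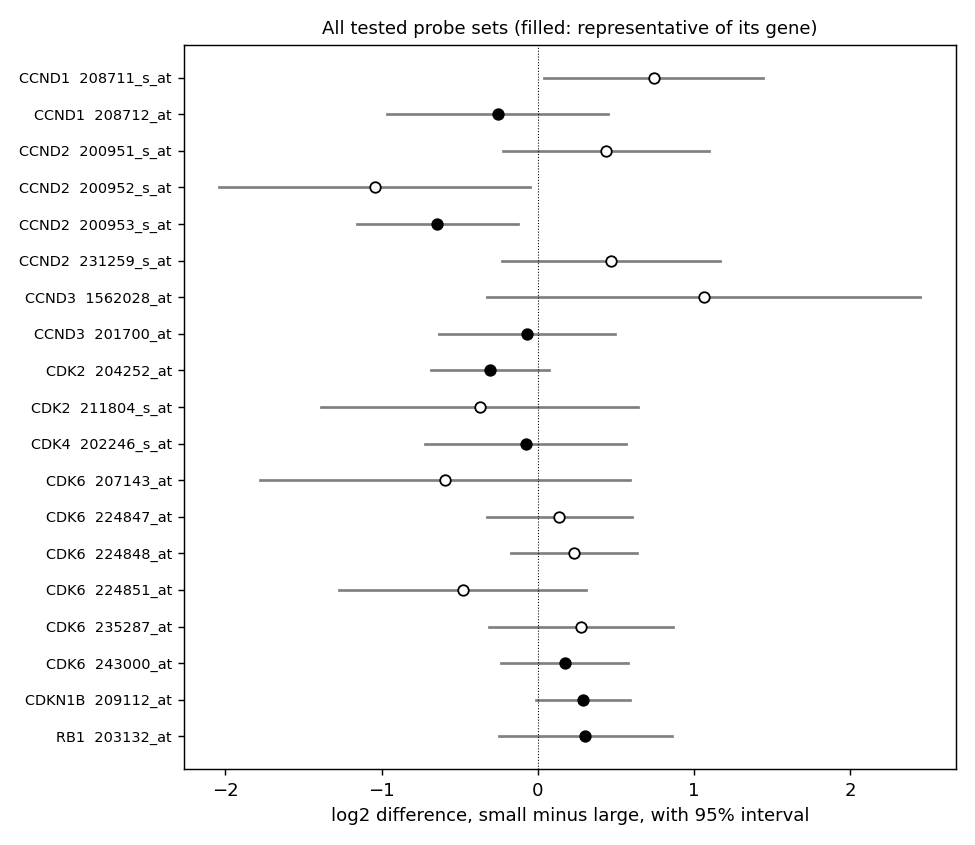
Log2 difference, small minus large (horizontal axis), with its 95% interval for each of the 19 tested member probe sets (rows). Filled points are the representatives, and the D cyclins have points on both sides of 0, as from -1.05 to 0.47 for CCND2.

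Among the kinases, CDK4, the main partner of D cyclins in many tissues, had 1 probe set, at 9.16, 9.39, 9.95 and 9.91 in small cells, against 8.62, 10.25, 10.02 and 9.83 in large cells. Large array 1 was the lowest of the 8 and large array 2 the highest. The difference was -0.078 ± 0.30 SE (limma adjusted p = 0.932), with a wide 95% interval from -0.72 to 0.57. Its sign turned with other scalings of the arrays, being 0.048 with median centring and 0.045 with scaling to the 75th percentile.

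CDK6, the other partner of the D cyclins, had 6 tested probe sets and a seventh below the level for testing. On the brightest, 243000_at, it was at 7.05, 7.19, 7.05 and 6.66 in small cells, against 6.67, 6.68, 6.78 and 7.12 in large cells. Small arrays 1 to 3 were above large arrays 1 to 3, and small array 4 was the lowest of all. The difference was 0.17 ± 0.19 SE (limma adjusted p = 0.723, 95% interval from -0.24 to 0.58). Over the 6 probe sets the difference ran from -0.60 to 0.28, with 4 above 0 and 2 below.

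CDK2, the partner of cyclins E and A, was at 6.92, 6.87, 6.81 and 6.83 in small cells on 204252_at, against 6.83, 7.22, 7.20 and 7.40 in large cells. The small arrays lay within a narrow band, and large arrays 2 to 4 were above it while large array 1 was inside it. The means were 6.86 ± 0.050 in small and 7.16 ± 0.24 in large cells (SD, n = 4 each), a difference of -0.31 ± 0.18 SE (limma adjusted p = 0.437). The second tested probe set of CDK2, 211804_s_at, differed by -0.37 ± 0.47 SE with overlapping groups. A dim further one, 211803_at, was at 1.36 to 3.74 in small and 3.34 to 4.29 in large cells and was not tested.

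Of the CDK inhibitors among the members, CDKN1B was the one with a level above the requirement. CDKN1B had 1 probe set, 209112_at, at 9.46, 9.24, 9.18 and 9.40 in small cells, against 9.18, 8.78, 9.08 and 9.08 in large cells. Every small array was above every large array, although small array 3 and large array 1 were nearly equal (9.1800 in small, 9.1795 in large). The means were 9.32 ± 0.13 in small and 9.03 ± 0.17 in large cells (SD, n = 4 each), a 1.22-fold difference (0.29 ± 0.14 SE on the log2 scale). It did not pass (limma unadjusted p = 0.0575, adjusted p = 0.346, 95% interval from -0.011 to 0.59). With scaling to the 75th percentile the difference was 0.41 with an adjusted p of 0.212.

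CDKN2D was dim throughout. Its probe set 210240_s_at was at 1.38, 1.64, 3.03 and 1.74 in small cells, against 4.26, 2.26, 3.10 and 3.33 in large cells, and 213586_at was at 1.67 to 3.63 in small and 2.57 to 3.71 in large cells. In deposited units these correspond to 0.673 to 9.29 in small and 2.88 to 13.3 in large cells over both probe sets. Neither reached the level for testing, so no difference is given for this gene.

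RB1, the target of the CDK4 and CDK6 complexes, was at 7.77, 6.92, 7.45 and 6.97 in small cells on 203132_at, against 6.70, 6.51, 7.54 and 7.14 in large cells. Large arrays 1 and 2 were the lowest and small array 1 the highest, with the other arrays mixed. The difference was 0.30 ± 0.26 SE (limma adjusted p = 0.624, 95% interval from -0.25 to 0.86). A second RB1 probe set, 211540_s_at, had a mean of 3.44 and was not tested.

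Spread between arrays of a group differed among the members. The pooled within-group SD was 0.153 for CDKN1B, 0.171 for CDK2 and 0.220 for CDK6, below the median of 0.268 over all tested probe sets with a mean of at least 6. It was 0.645 for CCND1 and 0.584 for CDK4, larger than in 98.1% and 96.8% of those probe sets. It was 0.447 for CCND2, 0.434 for RB1 and 0.420 for CCND3. The interval of a difference was accordingly wide for CCND1 and CDK4 and narrow for CDKN1B and CDK2.

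Whether members differed unequally within an array was asked for 5 combinations of representative probe sets. These were compared with an exact two-sided permutation test over 70 assignments. A scaling common to an array cancels in such a difference, but quantile normalization, which was applied here, does not. CDKN1B minus CDK2, an inhibitor against the kinase it binds, was 2.54, 2.37, 2.37 and 2.57 in small cells, against 2.35, 1.56, 1.88 and 1.69 in large cells. The groups did not overlap, with large array 1 just below the small arrays. The mean was 2.46 ± 0.11 in small and 1.87 ± 0.35 in large cells (SD, n = 4 each), 0.59 higher in small cells. The exact p was 0.0286, the smallest this design can give, and 0.143 after Benjamini-Hochberg adjustment over the 5, so it did not pass.

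Among the D cyclins, CCND2 minus CCND3 averaged 3.04 ± 0.48 in small and 3.61 ± 0.27 in large cells, a difference of -0.57 with overlapping groups (exact permutation p = 0.0857, adjusted 0.214). CCND2 minus CCND1 differed by -0.39 (exact permutation p = 0.343, adjusted 0.571). CCND3 minus CCND1 differed by 0.19 (exact permutation p = 0.571, adjusted 0.629) and CDK6 minus CDK4 by 0.25 (exact permutation p = 0.629, adjusted 0.629). None of the 5 combinations was therefore shown to be unequal after adjustment, in a design whose number of arrays sets the lowest p.

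**Figure D4:**
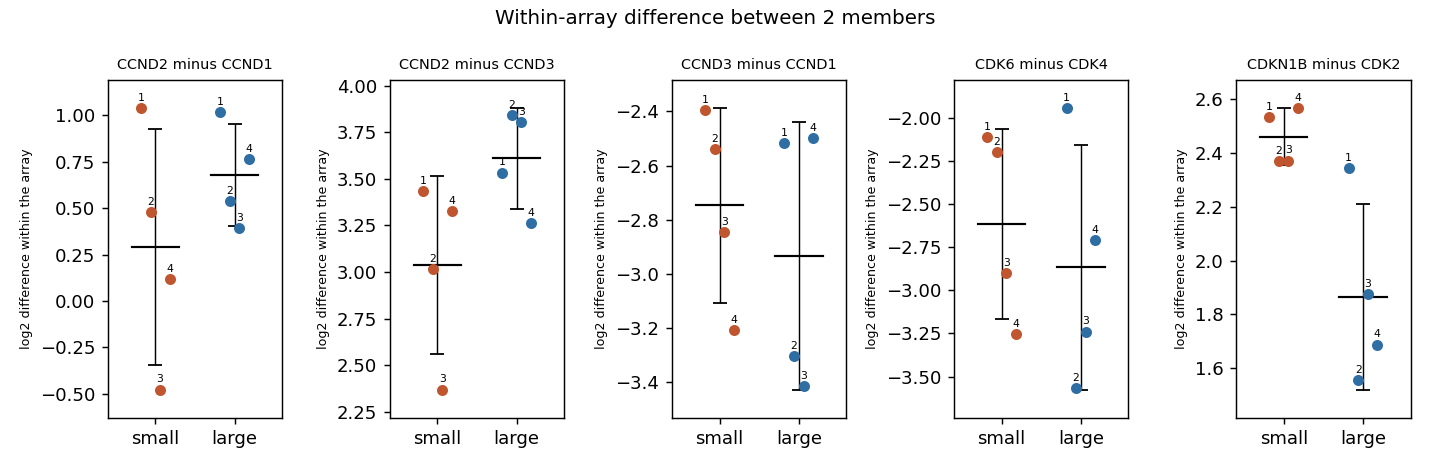
Within-array log2 difference between representative probe sets of 5 combinations of members (vertical axes, each with its own range) on 4 small and 4 large arrays; bars are group means and error bars the SD. CDKN1B minus CDK2 is the panel without overlap, from 2.37 to 2.57 in small and from 1.56 to 2.35 in large cells.

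The genes most like CCND2 over the 8 arrays, by Pearson correlation of representative probe sets, were the thiamine transporter SLC19A3 (r = 0.973), the cargo receptor of the early secretory pathway TMED2 (r = 0.964) and CHID1 (r = 0.957). They are the highest of 14726 genes over only 8 arrays, and none of the 3 passed in limma, with differences of -0.47, -0.37 and -0.45.

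The wider cell cycle machinery was described by 8 lists with 88 genes, of which 85 had a tested probe set. With 1 probe set per gene, 0 of the 85 were higher and 1 was lower in small cells, where 1.63% of all 14726 genes passed, 0.19% higher and 1.44% lower. The means were higher in small cells for 55 of the 85, and their median difference was 0.075, against 0.050 for all genes. Groups did not overlap for 13 of the 85, against 10% of all genes.

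Partners of the members were in 4 of these lists, none of which held a called gene. Of 11 other cyclins the median was 0.17. CCNF, an F-box protein of G2, was at 7.40 ± 0.31 in small and 6.84 ± 0.36 in large cells without overlap (0.56 ± 0.22 SE, limma adjusted p = 0.243), and CCNA2, which activates CDK2 in S phase, differed by 0.26 ± 0.13 SE (limma adjusted p = 0.353). Of 8 other CDKs the median was 0.022, with CDK14 at 0.56 ± 0.21 SE (limma adjusted p = 0.218) and CDK9, the elongation kinase, at -0.48 ± 0.38 SE. The 4 tested genes of other CDK inhibitors had a median of 0.11, with the phosphatase CDKN3 at 0.30 ± 0.26 SE and CDKN1C (p57) at 0.19 ± 0.25 SE. The 7 genes that control CDK phosphorylation had a median of 0.093. Of these the activating phosphatase CDC25C was at 7.84 to 8.37 in small and 7.58 to 7.64 in large cells without overlap (0.40 ± 0.16 SE, limma adjusted p = 0.262), and CDC25A differed by 0.37 ± 0.20 SE.

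Downstream, the 12 genes of the RB family, the E2F factors and their DP partners had a median of -0.037 and 0 calls. The DP subunit TFDP2 differed by 0.34 ± 0.16 SE and E2F6, a repressor of the family, by 0.33 ± 0.18 SE (limma adjusted p = 0.347 and 0.403). The 15 tested replication genes that E2F regulates had a median of 0.064 and 0 calls. GINS2, of the replicative helicase, was at 9.35 to 9.61 in small and 8.91 to 9.21 in large cells (0.43 ± 0.13 SE, limma adjusted p = 0.133). CDT1, a licensing factor, differed by 0.62 ± 0.23 SE (limma adjusted p = 0.204).

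The 13 genes for the turnover of p27 and the D cyclins had a median of 0.13 and 0 calls. The ubiquitin-conjugating enzyme UBE2R2, which works with SCF ligases, was at 9.42 to 9.56 in small cells, against 8.80 to 9.25 in large cells. Its groups did not overlap, but the difference of 0.46 ± 0.13 SE did not pass (limma adjusted p = 0.112). RNF123, a ligase subunit that targets p27, differed by -0.64 ± 0.32 SE (limma adjusted p = 0.365).

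Of the 15 G2/M genes 1 was called, where 1.63% of all genes passed, and it was lower. CENPF, a kinetochore protein that accumulates in G2, was at 8.28, 8.35, 8.33 and 8.54 in small cells, against 9.22, 9.08, 9.22 and 9.45 in large cells. Its groups were well apart (-0.87 ± 0.14 SE, 1.82-fold lower in small cells, limma adjusted p = 0.0128). The second tested probe set of CENPF differed by -0.83 ± 0.20 SE (limma adjusted p = 0.0648). The list as a whole had a median of 0.14, with means higher in small cells for 12 of its 15 genes. Besides CENPF, the lower ones were MKI67 at -0.79 and CENPE at -0.65 (limma adjusted p = 0.115 and 0.105). Of the 12 higher ones, AURKA at 0.48 and TOP2A at 0.56 had the smallest p (limma adjusted p = 0.0926 and 0.106). Groups did not overlap for 5 of the 15, against 10% of all genes. Of these, 3 were higher in small cells (AURKA, CDC20 and TPX2) and 2 lower (CENPF and CENPE).

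**Figure D5:**
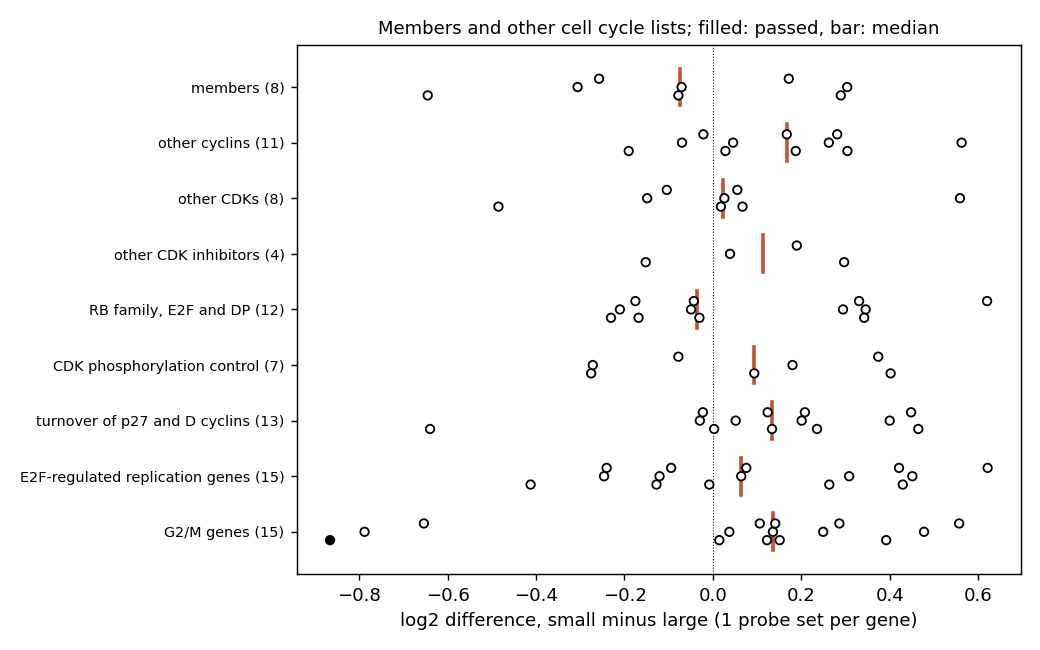
Log2 difference, small minus large (horizontal axis), of each tested gene (points, 1 probe set per gene) for the 8 tested members and 8 cell cycle lists (rows, number of tested genes in brackets), with list medians as bars. The filled point is CENPF at -0.87, the called gene among the 85 list genes.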

How the data were processed

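The authors deposited 1 table of intensities on a linear scale, with a row for each probe set, for 4 small and 4 large sorts. Per the series design text, the scan data came from GeneChip Operating Software and were then loaded into Rosetta Resolver. The program, background correction and scaling behind these intensities are not given in the sources used here, and no detection call was used. Scan dates were not used here.

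Groups came from the sample titles. Values were put on the log2 scale after 1.814, their 10th percentile, had been added as a pseudocount, which understates fold changes of dim probe sets. Arrays were quantile normalized, the 62 controls were dropped, and probe sets with a mean above the 40th percentile were tested (32768). Of 41097 probe sets with 1 gene symbol in GEO's platform annotation, 41043 were found by gene ID in a RefSeq table used to update symbols, while 1801 had several symbols. Small and large arrays were compared in limma 3.58.1 (R 4.3.3; lmFit, eBayes with a variance trend), two-sided, with Benjamini-Hochberg adjustment over all 32768. The procedure was tested on simulated data. Precision is limited by 4 arrays per group.

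The members and lists were chosen with earlier results of these data known. The rule for named genes took all members, from each list up to 4 called genes with the largest difference or else the 2 with the smallest p, the 3 genes most like the member with the smallest p, NANOG, SOX2 and any called marker. Probe set comparisons within CCND1 and CCND2, the second CENPF probe set and the spread of the members were described after values were seen. So were HLA-G, CENPE, MKI67, AURKA, TOP2A, CDC20, TPX2, COL3A1 and SOX1, and the direction of the stem cell and neuroectoderm markers. Alternatives were other normalizations, pseudocounts, filters, probe set rules, a replicate block, array weights, no variance trend, an RNA quality covariate and leaving out each array.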

Additional observations from a re-analysis of the deposited data

Results flagged for a closer look

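Among 38 groups of 4 arrays (19 member probe sets, small and large), 5 held 1 array far from the other 3, where chance gives about 1 in 20 groups. On the dim CCND3 probe set 1562028_at, large array 1 was at 5.28, against 2.20 to 2.60 on the other large arrays. On CDK2 probe set 211804_s_at, small array 2 was at 2.59, against 4.45 to 4.59 on the other small arrays. On CDK6 probe set 235287_at, small array 1 was at 5.92, against 5.01 to 5.13 on the others. Large array 2 was high on CDK6 probe sets 224848_at, at 6.82 against 6.35 to 6.39 on the others, and 224851_at, at 6.39 against 6.00 to 6.07. None of these is the representative probe set of its gene.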

How the results depend on the processing

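Under the 15 other settings and with each of the 8 arrays left out, 0 member probe sets were called in limma. CCND2, CDK2, CDKN1B and RB1 kept their sign in each of these fits that gave them a value. With 1 array left out, CCND2 ran from -0.84 to -0.46, CDK2 from -0.42 to -0.23, CDKN1B from 0.21 to 0.34, RB1 from 0.14 to 0.49, CDK6 from 0.10 to 0.28 and CCND1 from -0.57 to -0.0097, while CCND3 (-0.25 to 0.099) and CDK4 (-0.43 to 0.11) changed sign. The mean of all tested probe sets turned CCND1 to 0.24, CCND3 to 0.50 and CDK6 to -0.043. CDK4 turned to 0.048 with median centring, to 0.045 with scaling to the 75th percentile and to 0.13 with the RNA quality covariate. The cause was not tested. Once _x_at and _s_at probe sets were dropped, CCND2 and CDK4 had no value.

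The number of probe sets called over the whole array, 492, was not stable. It was 3 on the deposited scaling, 3 with median centring, 3 without the variance trend, 1133 with array weights, 309 with the RNA quality covariate and 49 (without large array 4) to 790 (without large array 1) with 1 array left out. It was 290 without _x_at and _s_at probe sets, 290 with 1 probe set per gene and 247 with the mean per gene, where fewer features were tested. The replicate block gave 1211. Deviations of equally numbered small and large arrays correlated at 0.018 to 0.21, and 3 of 4 small arrays matched their own number best. Some genes followed the number, as COL3A1 at 7.65, 8.55, 6.73 and 4.91 in small cells, against 7.97, 8.39, 6.28 and 5.10 in large cells. Others did not, as SOX1 at 4.59, 4.23, 5.25 and 3.97 in small cells, against 2.57, 4.94, 4.90 and 4.74 in large cells. The labels do not say that equal numbers mark pairs, so the main fit and the permutation tests did not use them. Whether the arrays are paired is not settled here. With the block the SE fell from 0.33 to 0.22 for CCND1 and from 0.30 to 0.18 for CDK4, but rose from 0.19 to 0.20 for CDK6. The block called 0 member probe sets, with 0.169 as the adjusted p of CCND2. The 5 combinations of members, refitted under 12 settings chosen after seeing the data, kept their sign, with a smallest adjusted p of 0.143, but 4 sizes moved by over 1.5 times with 1 array left out. CDK6 minus CDK4 ran from 0.015 (without large array 2) to 0.56 (without large array 1), CCND3 minus CCND1 from 0.025 (without large array 3) to 0.34 (without small array 4), CCND2 minus CCND1 from -0.63 (without small array 1) to -0.13 (without small array 3) and CCND2 minus CCND3 from -0.70 (without small array 1) to -0.36 (without small array 3). CDKN1B minus CDK2 ran from 0.49 to 0.76. On the deposited scaling CCND3 minus CCND1 was 0.090 and CDK6 minus CDK4 was 0.16.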
